A study of Mus musculus with 9 samples.

Results

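The 9 genes described here act in extracellular matrix proteolysis in mouse heart: the tissue inhibitors of metalloproteinases Timp1, Timp2, Timp3 and Timp4, the matrix metalloproteinases Mmp2 and Mmp14, the plasminogen activator Plat, and the secreted metalloproteinases Adamts1 and Adamts2. They were taken by symbol, and all 9 were among the 15779 genes in the deposited tables. RNA of adult hearts was sequenced after selection on the poly(A) tail, in 9 libraries of 3 groups with 3 libraries each, all on the C57BL/6J background. The saline wild-type group was wildtype mice given saline, and the saline mutant group was Mybpc3R946X/R946X mice given saline. The treated mutant group was mice of that same genotype given high-dose-exABE8e. R946X is a premature stop codon in Mybpc3, which encodes cardiac myosin-binding protein C, and the study used these mice as a model of hypertrophic cardiomyopathy. ABE8e is an adenine base editor, and per the series' design text the editors were delivered with the viral vector AAV9 to be expressed in cardiomyocytes. The labels do not define the prefix ex, give no age, sex or numeric dose, and name no group given vector alone. Nothing in them says that the replicates are separate animals, so the p-values measure the spread between these libraries.

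The extracellular matrix of the heart is turned over by zinc-dependent metalloproteinases, which are made as inactive precursors and are held in check by the TIMP proteins. On the cell surface the membrane-anchored enzyme encoded by Mmp14, with TIMP2 as an adaptor, activates the gelatinase encoded by Mmp2. The ADAMTS enzymes are secreted metalloproteinases with thrombospondin repeats: Adamts1 encodes a protease of large proteoglycans such as versican, and Adamts2 encodes the enzyme that removes the amino-terminal propeptide of fibrillar procollagens. Plat encodes tissue-type plasminogen activator, a serine protease that turns plasminogen into plasmin.

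The 9 genes lie on 7 chromosomes (GRCm38, GENCODE M21). The inhibitor genes Timp1, Timp3 and Timp4 each lie wholly within a synapsin gene on the opposite strand. Timp1 (chrX:20870166-20874735, plus strand) is inside Syn1, Timp3 (chr10:86300372-86349506, plus strand) inside Syn3, and Timp4 (chr6:115241892-115252205, minus strand) inside Syn2. The annotated exons of Timp1 and Syn1 share 0 bases, those of Timp3 and Syn3 share 1733, and those of Timp4 and Syn2 share 90. Whether the counting used the strand is not given in the sources used here, so the split of reads in these shared exons is uncertain. Syn1 and Syn3 were listed at 0 or 1 in every library. Syn2 was listed at 5, 5 and 6 in the saline wild-type libraries, 9, 9 and 11 in the saline mutant libraries and 11, 11 and 8 in the treated libraries, against 47 to 113 for Timp4. Between the saline groups Syn2 was called higher in the mutant, with a log2 difference of 0.75 (limma adjusted p = 0.0217). Timp2 is at chr11:118301069-118355740 (minus strand), and it overlaps Cep295nl on the same strand, which was not analysed here. Mmp2 is at chr8:92827291-92853420 (plus strand), Plat at chr8:22757727-22782844 (plus strand) and Mmp14 at chr14:54431612-54445364 (plus strand). Adamts1 is at chr16:85793827-85803113 (minus strand). Adamts2 is at chr11:50602084-50807573 (plus strand), where the transcripts Gm12198, Gm12199 and Gm12200 on the other strand were not analysed here.

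The promoters of Timp1 and Adamts1 are shown because these were the 2 members whose RNA passed the test between the saline groups, and that of Timp4 because its RNA did not and its window held none of the motifs searched. Each is the 250 bases before the RefSeq transcript start (GRCm38.p6), 5′ to 3′ on the gene's own strand, with motif matches in capitals. The windows are chrX:20869916-20870165 (plus strand) for Timp1, chr16:85803114-85803363 (minus strand) for Adamts1 and chr6:115252206-115252455 (minus strand) for Timp4.
Timp1: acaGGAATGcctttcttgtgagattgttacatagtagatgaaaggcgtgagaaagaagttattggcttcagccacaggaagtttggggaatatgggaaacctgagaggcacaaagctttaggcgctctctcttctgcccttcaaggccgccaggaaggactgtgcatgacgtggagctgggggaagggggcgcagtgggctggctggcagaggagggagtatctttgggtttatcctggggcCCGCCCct
Adamts1: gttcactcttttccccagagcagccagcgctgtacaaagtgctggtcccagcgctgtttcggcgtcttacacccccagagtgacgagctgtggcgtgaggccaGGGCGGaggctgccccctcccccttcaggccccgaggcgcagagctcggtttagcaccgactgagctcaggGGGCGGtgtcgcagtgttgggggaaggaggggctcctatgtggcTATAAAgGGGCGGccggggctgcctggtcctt
Timp4: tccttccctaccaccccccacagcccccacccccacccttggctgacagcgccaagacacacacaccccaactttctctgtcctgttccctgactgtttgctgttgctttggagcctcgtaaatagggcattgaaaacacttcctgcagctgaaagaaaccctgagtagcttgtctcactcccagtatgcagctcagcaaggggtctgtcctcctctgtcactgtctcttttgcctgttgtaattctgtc

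Motifs were searched on both strands in windows of 300 bases, from 250 before to 50 after the start, in 32851 RefSeq promoters and in the 7 members that matched one by symbol. Mmp2 and Plat had no entry. The GC box GGGCGG, which Sp1 binds, was found in 6 of these 7 windows, all but that of Timp4, against 35.7% of all promoters. In Timp1 it lies on the other strand, as CCGCCC, with its first base 8 bases before the start. In Adamts1 it occurs with its first base at 147, 76 and 25 bases before the start. The TATA box TATAAA was found only in Adamts1 among the members, with its first base 32 bases before the start, against 13.6% of all promoters. The TEAD motif GGAATG was found only in Timp1 among the members, 247 bases before the start, against 14.7% of all promoters. The AP-1 motif TGANTCA was in none of the 7 windows and in 7.81% of all promoters, and the cAMP response element TGACGTCA was in none and in 1.79%. The serum response element known as the CArG box was also in none, against 1.63%. TGAGTAA, a variant AP-1 site searched for after the sequences had been read, was found in Timp1 only among the members, beginning 26 bases after the start, and in 2.68% of all promoters. GC content was 55% with 8 CpG in the Timp1 window, 64.7% with 18 CpG in Adamts1 and 53.3% with 2 CpG in Timp4, against medians of 52.7% and 7 over all promoters. It was highest in Adamts2, with 77.3% and 41 CpG. The matches describe letters only.

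The values in the deposited tables are whole numbers that sum to between 999152 and 999382 in each library. They behave as per-million values scaled for transcript length and rounded: the titin gene Ttn, with a transcript of 106824 bases, was listed below the myosin gene Myh6, with 6113 bases. No source used here names the unit, the sequencing depth is unknown, and a value of 1 or 2 carries a large rounding error. Mybpc3 was listed at 1510, 1795 and 2039 in the saline wild-type libraries, at 133, 142 and 186 in the saline mutant libraries and at 1024, 1374 and 1332 in the treated libraries, which fits the labels. The X-inactivation transcript Xist was present in 3 libraries: saline wild type 1 at 119, saline mutant 3 at 351 and treated mutant 1 at 39. The last of these also held the Y-linked gene Ddx3y at 38, so it carries transcripts of both sexes. Summed fibroblast markers (10 of 10 listed) ranged from 3030 to 4037 in saline wild type, 3393 to 4556 in saline mutant and 3492 to 3660 in treated libraries. Of these markers 7 of 10 were above 0 between the saline groups, with a median log2 difference of 0.41 and 6 of 10 at an unadjusted p under 0.05. The sum is dominated by Gsn, with means of 1968 and 1546 in saline wild type and saline mutant. Without Gsn the other 9 markers, a sum formed after seeing the data, gave 1289 to 1736, 1866 to 2943 and 1467 to 1834, and the saline groups did not overlap. Summed macrophage markers (10 of 10) ranged from 436 to 605, 469 to 898 and 470 to 598, and summed endothelial markers (10 of 10) from 1984 to 2319, 1667 to 2135 and 1641 to 1944. Neutrophil markers summed to at most 4, with Retnlg, Mpo and Ngp not listed. Cardiomyocyte markers (8 of 8) summed to 47800 to 58837 over all libraries. Other lists stood apart between saline wild type and saline mutant: blood markers (6 of 6 listed) at 104 to 313 against 69 to 85, atrial markers (3 of 6 listed) at 48 to 67 against 360 to 1494, and valve and endocardial markers (6 of 6) at 140 to 216 against 218 to 562. In the treated libraries these were 140 to 158, 161 to 260 and 185 to 319. Of the 5 blood markers tested between the saline groups, 2 were called lower in the mutant and 0 higher. All 5 had an unadjusted p under 0.05, and the median log2 difference was -1.36. The atrial sum was nearly all Nppa, with means of 49.3 and 901 in saline wild type and saline mutant. Of the 3 listed atrial markers 2 were called higher and 1, Sbk2, lower. In the valve and endocardial sum Postn had means of 83 and 252, Nfatc1 24.7 and 25, and Cytl1 12.3 and 11.3. The log2 difference was above 0 in 5 of these 6 markers, and none was called. Smooth muscle and pericyte markers (9 of 9) overlapped at 1598 to 1973, 1347 to 1621 and 1330 to 1642, with Acta2 called lower in the saline mutant (means of 258 and 118, limma adjusted p = 0.00721). The part of these markers in the results was not tested. In such whole-tissue RNA, fewer cells of a type and less RNA per cell cannot be told apart.

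**Figure D1:**
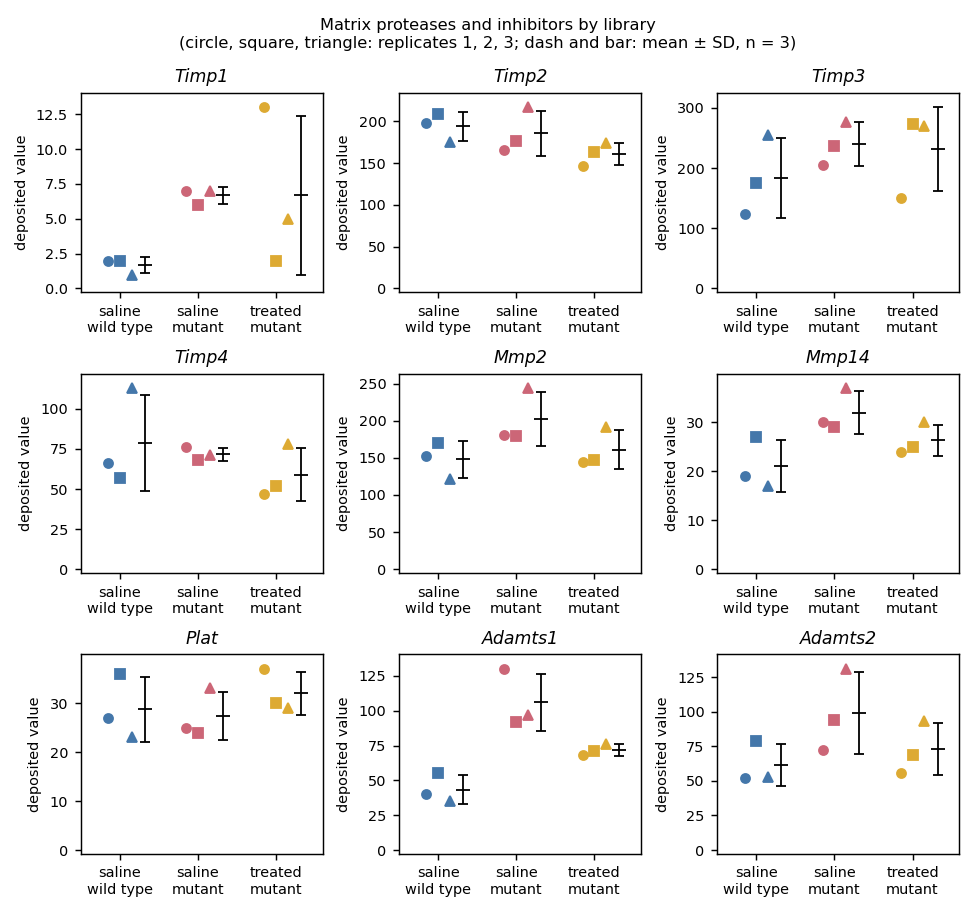
Deposited value of each of the 9 genes (vertical axis, rounded per-million-like value, starting at 0) in the 3 saline wild-type, 3 saline mutant and 3 treated mutant libraries. Circles, squares and triangles are replicates 1, 2 and 3, and the dash with bar is the mean ± SD. Adamts1, Timp1, Mmp2 and Mmp14 do not overlap between the saline groups, and of these Adamts1 and Timp1 passed the test. For Timp1 the treated libraries spread from 2 to 13.

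The first comparison asks what the homozygous mutation did to these genes in saline-treated hearts. Timp1 and Adamts1 rose in the mutant, by about 4.0-fold and 2.45-fold in the ratio of group means. Mmp2, Mmp14 and Adamts2 were higher on average but did not pass the test, and Timp2, Timp3, Timp4 and Plat differed by less than the spread between libraries. Thus 2 of 9 members were called higher and 0 lower, where 4.56% of the 13632 genes tested were called higher and 3.14% lower (limma on log2(value + 1), Benjamini-Hochberg adjusted p under 0.05). All 9 members passed the filter on low values, a mean of at least 1 over the 6 libraries. In 4 members every saline mutant library lay above every saline wild-type library, and in 0 below, against 12.8% and 8.78% of all genes. The median log2 difference was 0.45 over the members and 0.068 over all genes tested, and 6 of 9 were above 0 where 59.1% of all genes were. An unadjusted p under 0.05 was reached by 5 of 9 members and by 19.7% of all genes. Under upper-quartile scaling the share of calls that were higher, over all genes, was 47.7% in place of 59.2%, and the direction of each member was unchanged by either scaling alternative.

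Among the inhibitors, Timp1, an inducible member of the family, was listed at 2, 2 and 1 in saline wild type and at 7, 6 and 7 in saline mutant hearts. The groups do not overlap, although all values are low. The means were 1.67 ± 0.577 and 6.67 ± 0.577 (SD, n = 3), and rounding of the values alone allows a ratio of means between 2.85 and 6.14. On the log2(value + 1) scale, which understates the change of a gene this low, the difference was 1.55 (SE 0.211, 95% interval 1.06 to 2.03, limma adjusted p = 0.00302). The call was lost when all 9 libraries shared 1 fit (adjusted p = 0.0649) and when the variance trend was extrapolated from genes with a mean of at least 30 (adjusted p = 0.757). That extrapolated trend was the 1 first planned. The call was kept in 16 of the 18 alternatives that tested the gene, with adjusted p between 0.000867 and 0.757 over all of them. In the authors' deposited table the log2 fold change of Timp1 was 1.93 with p = 0.0365, and the gene is in their list of 689.

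Timp2, Timp3 and Timp4 made up nearly all of the TIMP signal. Timp2, the adaptor of Mmp2 activation, was listed at 198, 209 and 175 in saline wild type and at 166, 176 and 217 in saline mutant hearts. The ranges overlap, and the log2 difference was -0.06 (SE 0.127, 95% interval -0.35 to 0.22, limma adjusted p = 0.842). Timp3, which binds to the matrix and also inhibits ADAM and ADAMTS enzymes, was listed at 123, 175 and 255 against 205, 237 and 277. The wild-type libraries spread more widely than the groups differed, and the log2 difference was 0.43 (SE 0.238, 95% interval -0.11 to 0.97, limma adjusted p = 0.377). Timp4, the family member most restricted to heart and a few other tissues, was listed at 66, 57 and 113 against 76, 68 and 71. The saline wild-type library 3 was the highest of all 9, and the log2 difference was -0.07 (SE 0.223, 95% interval -0.58 to 0.44, limma adjusted p = 0.919). Without that library the sign turned, with a difference of 0.22 (adjusted p = 0.53).

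Among the proteases, Adamts1 was the 1 called higher. It was listed at 40, 55 and 35 in saline wild type and at 130, 92 and 97 in saline mutant hearts, and the lowest mutant value was above the highest wild-type value. The means were 43.3 ± 10.4 and 106 ± 20.6 (SD, n = 3). The log2 difference was 1.28 (SE 0.189, 95% interval 0.85 to 1.71, limma adjusted p = 0.00434), and the gene was called in 19 of 19 alternatives with adjusted p between 0.00108 and 0.0402. In the authors' deposited table its log2 fold change was 1.24 with p = 2.61e-06. Per 1000 of the summed fibroblast markers, Adamts1 was 9.91, 15.7 and 11.6 in saline wild type and 38.3, 26.5 and 21.3 in saline mutant libraries. The groups stayed apart on that scale and per 1000 of endothelial markers, with 17.6 to 23.7 against 45.4 to 74. Without Gsn in the fibroblast sum they overlapped, at 23, 33.6 and 27.2 against 69.7, 46.6 and 33. Per 1000 of macrophage markers they were apart, at 72.3 to 90.9 against 108 to 277.

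Mmp2, the gelatinase mainly made by fibroblasts in heart, was listed at 152, 170 and 121 in saline wild type and at 181, 180 and 244 in saline mutant hearts. The groups do not overlap, by 10 units at the nearest pair, but the difference did not pass the test at 0.45 (SE 0.162, 95% interval 0.08 to 0.82, limma adjusted p = 0.161). Mmp14, its membrane-bound activator, was listed at 19, 27 and 17 against 30, 29 and 37. These groups do not overlap either, and the difference of 0.60 (SE 0.182, 95% interval 0.19 to 1.02, limma adjusted p = 0.0921) did not pass. It did pass with median-of-ratios scaling (0.53, adjusted p = 0.0414) and without saline wild-type library 2 (0.79, adjusted p = 0.025), over alternatives that reached 0.401. Adamts2, the procollagen amino-propeptidase, was listed at 52, 79 and 53 against 72, 94 and 131. The ranges overlap, and the difference was 0.67 (SE 0.231, 95% interval 0.14 to 1.19, limma adjusted p = 0.144). It passed without saline mutant library 1 (0.87, adjusted p = 0.0427), over alternatives that reached 0.525. In the authors' deposited table, Adamts2 had a log2 fold change of 0.61 with p = 0.0138 and is in their list, while Mmp2 had 0.37 with p = 0.0469 and is not. Their p is unadjusted for the number of genes.

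Saline mutant library 3 was the highest of the 9 libraries for Timp2, Timp3, Mmp2, Mmp14 and Adamts2. It also had the highest summed fibroblast markers, 4556, and macrophage markers, 898, and it is the saline mutant library that holds Xist. Its mitochondrial share was the lowest of the 9 libraries, 17%, where that of saline wild-type library 1 was the highest, 24.1%. Genes above 0 numbered 14934 in it, the most of the 9 libraries. The part of these traits in the result was not tested. Per 1000 of the summed fibroblast markers, Mmp2 was 37.7 to 48.6 in saline wild type and 51.8 to 53.6 in saline mutant libraries. On the same scale Mmp14 was 4.71 to 7.71 against 8.12 to 8.84, so both stayed apart, while Adamts2 overlapped at 12.9 to 22.6 against 21.2 to 28.8. Without Gsn in that sum all of these overlapped, Mmp2 at 87.6 to 104 against 82.9 to 97, Mmp14 at 10.9 to 16.5 against 12.6 to 16.1 and Adamts2 at 30 to 48.2 against 38.6 to 47.6. Timp1 did not overlap on that scale, at 0.776 to 1.22 against 2.38 to 3.75. Per 1000 of the macrophage markers Mmp2 overlapped at 275 to 281 against 262 to 386 and Mmp14 at 34.4 to 44.6 against 41.2 to 64, while Adamts2 was apart at 94 to 131 against 137 to 154. Per 1000 of the endothelial markers Mmp2 was apart at 61 to 74.8 against 103 to 114. On that scale Mmp14 at 8.57 to 11.6 against 17.1 to 17.4 and Adamts2 at 25.6 to 34.1 against 41 to 61.4 were apart too. Whether Mmp2, Mmp14 and Adamts2 stood apart differed between these marker sums, and the unscaled Adamts2 values overlapped. For Adamts1 the highest value was in saline mutant library 1, not library 3.

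Plat, the plasminogen activator, was listed at 27, 36 and 23 in saline wild type and at 25, 24 and 33 in saline mutant hearts. The ranges overlap almost fully, with a log2 difference of -0.06 (SE 0.187, 95% interval -0.48 to 0.37, limma adjusted p = 0.925). Its sign turned without saline wild-type library 2 (0.11) or saline mutant library 2 (0.027).

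**Figure D2:**
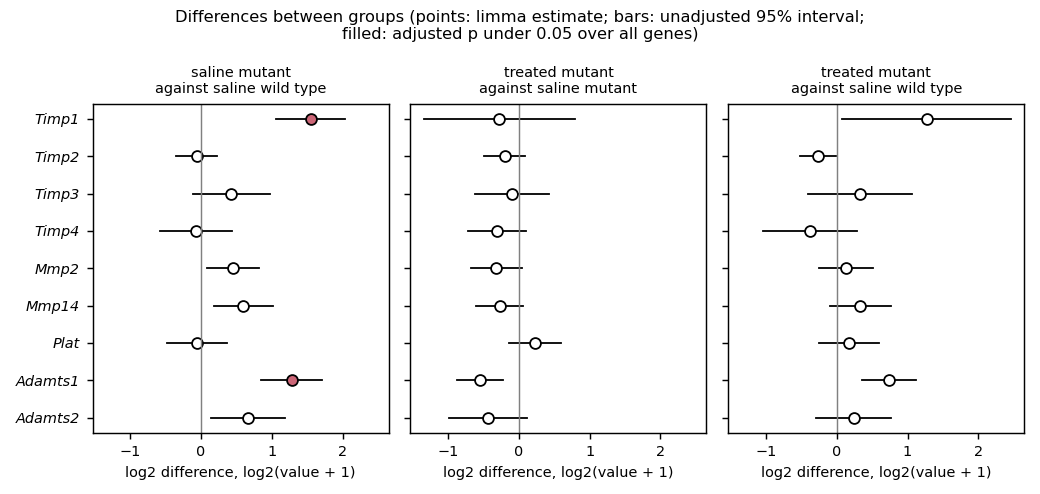
Log2 difference of each gene (horizontal axis, on log2(value + 1)) in the 3 comparisons, with the limma estimate as a point and its unadjusted 95% interval as a bar. Filled points have an adjusted p under 0.05 over all genes tested. Timp1 at 1.55 and Adamts1 at 1.28 between the saline groups are the 2 filled points.

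The second comparison asks what treatment of the mutant did. No member was called by limma between treated and saline mutant hearts, in either direction, and 1 of 9 had an unadjusted p under 0.05. Only 2 of 13636 genes were called over the whole table, Mybpc3 higher being the first by p, so 0.00733% were called higher and 0.00733% lower. An unadjusted p under 0.05 was reached by 1130 genes. In 8 of 9 members the treated mean on the log2 scale was below the saline mutant mean, with Plat the exception. The median was -0.28 over the members and -0.025 over all genes, of which 40.6% were above 0. In 1 member, Adamts1, every treated library was below every saline mutant library, and in 0 members above, against 4.34% and 5.48% of all genes.

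Adamts1 was listed at 68, 71 and 76 in the treated hearts, below the 92 to 130 of the saline mutant hearts. The treated mean was 71.7 ± 4.04 (SD, n = 3). The log2 difference was -0.55 (SE 0.143, 95% interval -0.87 to -0.22, limma adjusted p = 0.348). Over its 19 alternatives the adjusted p ranged from 0.2 to 0.992 and the difference from -0.64 to -0.40. In the authors' deposited table it was -0.54 with p = 0.0333, outside their list of 137. Per 1000 of fibroblast markers the treated libraries had 18.6 to 21.2, next to 21.3 to 38.3 in the saline mutant libraries. Without Gsn in that sum the 2 groups overlapped, at 40.8 to 48.4 against 33 to 69.7.

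Timp1 in the treated hearts was listed at 13, 2 and 5, with treated library 1 the highest of all 9 and treated library 2 at the wild-type level. The treated mean equalled that of the saline mutant group, 6.67, with an SD of 5.69 in place of 0.577 (n = 3 each). The log2 difference was -0.28 (SE 0.466, 95% interval -1.34 to 0.79, limma adjusted p = 0.896), and it became 0.26 without treated library 2. Treated library 1 is the library with transcripts of both sexes. Its part in the result was not tested.

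The other inhibitors were lower by amounts within the spread. Timp2 was listed at 147, 163 and 174 in treated hearts, a log2 difference of -0.20 (SE 0.129, 95% interval -0.49 to 0.09, limma adjusted p = 0.709). Timp4 was listed at 47, 52 and 78, a difference of -0.31 (SE 0.181, 95% interval -0.72 to 0.10, limma adjusted p = 0.684). Both overlap the saline mutant range. Timp3 was listed at 150, 273 and 269, a difference of -0.10 (SE 0.23, 95% interval -0.62 to 0.43, limma adjusted p = 0.944), and its sign turned without treated library 1 (0.19), without saline mutant library 3 (0.014) or without the 3 libraries that hold Xist (0.30).

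The metalloproteinases also lay lower without passing the test. Mmp2 was listed at 145, 147 and 192 in treated hearts, a difference of -0.32 (SE 0.16, 95% interval -0.68 to 0.05, limma adjusted p = 0.652). Of its 3 treated libraries 2 lay below the saline mutant range and the third inside it. Mmp14 at 24, 25 and 30 gave -0.27 (SE 0.144, 95% interval -0.60 to 0.06, limma adjusted p = 0.671), and Adamts2 at 56, 69 and 93 gave -0.43 (SE 0.241, 95% interval -0.98 to 0.12, limma adjusted p = 0.684). Each had 1 treated library within the saline mutant range. Plat, at 37, 30 and 29, gave 0.23 (SE 0.16, 95% interval -0.14 to 0.59, limma adjusted p = 0.746). These intervals still include differences of the size seen between the saline groups for Mmp2 and Adamts2.

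The third comparison sets treated mutant against saline wild-type hearts, and it shares libraries with both others. No member was called by limma, and 3 of 9 had an unadjusted p under 0.05, namely Adamts1, Timp1 and Timp2. Of all 13554 genes tested, 134 were called, 0.863% higher and 0.125% lower, and 1697 had an unadjusted p under 0.05. The higher share of these calls was 87.3%, and 72.1% under upper-quartile scaling. Leaving out 1 library moved the number called to between 1 (without saline wild-type library 1) and 133, so its calls depend on single libraries. The median log2 difference was 0.24 over the members and 0.009 over all genes, with 7 of 9 members above 0 where 51.4% of all genes were. Adamts1 was higher in every treated than in every wild-type library, against 9.13% of all genes, and Timp2 was lower in every one, against 5.43%.

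The Adamts1 difference was 0.74 (SE 0.166, 95% interval 0.35 to 1.12, limma adjusted p = 0.118), a ratio of means of 1.65. The lowest treated value, 68, was above the highest wild-type value, 55. Its adjusted p ranged from 0.0601 to 0.527 over the alternatives, and in the authors' deposited table the gene had 0.71 with p = 0.0119 and is in their list of 317. The 3 groups thus formed a sequence without overlap, wild type from 35 to 55, treated from 68 to 76 and saline mutant from 92 to 130. Of the 13530 genes tested over all 9 libraries, 132 (0.976%) had that order.

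Timp1 differed by 1.27 (SE 0.509, 95% interval 0.08 to 2.46, limma adjusted p = 0.365), with treated library 2 at 2, inside the wild-type range. Timp2, at 147 to 174 in treated and 175 to 209 in wild-type hearts, differed by -0.26 (SE 0.11, 95% interval -0.52 to -0.01, limma adjusted p = 0.383). The nearest libraries of the 2 groups, 174 and 175, differ by 1 unit. Timp4 gave -0.38 (adjusted p = 0.64), Timp3 0.33 (0.738), Mmp14 0.33 (0.507), Adamts2 0.24 (0.742), Plat 0.17 (0.783) and Mmp2 0.13 (0.817) on the log2 scale with limma adjusted p in brackets, and all 6 overlapped. The sign of Mmp2 turned without saline wild-type library 3 (-0.007) or treated library 3 (-0.0024).

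The TIMP genes were also set against each other within each library, where library scaling cancels. The sum of the 4 TIMP values was 389, 443 and 544 in saline wild type, 454, 487 and 572 in saline mutant and 357, 490 and 526 in treated hearts, and the ranges overlap. Timp2 contributed 50.9%, 47.2% and 32.2% of that sum in saline wild type, 36.6%, 36.1% and 37.9% in saline mutant, and 41.2%, 33.3% and 33.1% in treated hearts. Saline wild-type library 3 therefore had the smallest Timp2 share of all 9, and the other wild-type libraries the largest. Timp3 contributed 31.6%, 39.5% and 46.9% in saline wild type, 45.2% to 48.7% in saline mutant and 42% to 55.7% in treated hearts. Timp4 contributed 10.6% to 20.8% over all 9 libraries. Timp1 contributed 0.184% to 0.514% in saline wild type, 1.22% to 1.54% in saline mutant and 0.408% to 3.64% in treated hearts, the smallest part in each library.

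**Figure D3:**
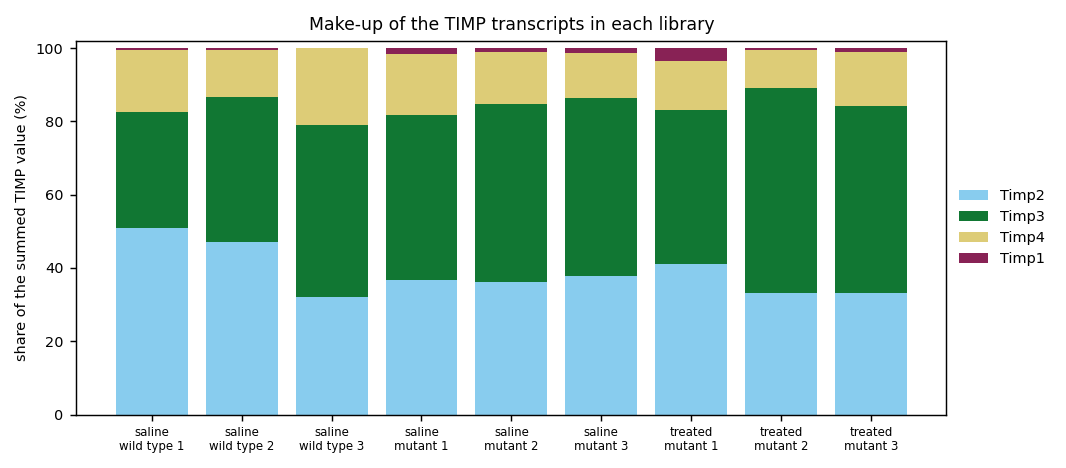
Share of each TIMP gene in the summed TIMP value (vertical axis, percent, starting at 0) in each of the 9 libraries. Timp2 and Timp3 fill most of each bar, Timp1 is the thin top segment, and the Timp2 share spans 32.2% to 50.9% among the wild-type libraries themselves.

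The ratio of Mmp2 to Timp2, a protease and the inhibitor that takes part in its activation, was 0.768, 0.813 and 0.691 in saline wild type. It was 1.09, 1.02 and 1.12 in saline mutant and 0.986, 0.902 and 1.10 in treated hearts. Every mutant library, treated or not, lay above every wild-type library, and the 2 mutant groups overlapped. This ratio was looked at after other values were known, so it has no test. The summed TIMP value over the sum of Mmp2 and Mmp14 was 2.27, 2.25 and 3.94 in saline wild type, 2.04 to 2.33 in saline mutant and 2.11 to 2.85 in treated hearts. These ranges overlap, and the mean of the wild-type group rests on saline wild-type library 3. RNA ratios say nothing of the amounts of active enzyme.

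Other genes of matrix proteolysis were taken as 9 lists of enzymes, activators and inhibitors with 104 genes. Between the saline groups 6 of the 78 tested rose and 4 fell, with a median log2 difference of 0.17 against 0.068 for all genes, and 27 had an unadjusted p under 0.05. Over all genes tested, 4.56% were called higher, 3.14% lower, and 19.7% had an unadjusted p under 0.05. The metalloproteinase gene Mmp23 rose from 8, 8 and 6 to 14, 17 and 23 (1.17, limma adjusted p = 0.00874), the only one of 9 tested in its list. That call was kept in 18 of 19 alternatives and lost with the extrapolated variance trend (adjusted p = 0.0953). Stromelysin 1 and gelatinase B were hardly present: Mmp3 had a mean of 2 in saline wild type and 3 in saline mutant hearts, and Mmp9 had means of 0.667 and 0 and was not tested.

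Among 13 other ADAMTS genes tested, 2 were called higher, Adamts8 and Adamts20, and 1 fell. Adamts20 was listed at 0, 1 and 0 in saline wild type, 11, 14 and 16 in saline mutant and 7, 4 and 10 in treated hearts, so the groups follow the order seen for Adamts1. It passed the filter on low values only through the mutant libraries, so its calls, against wild type in both comparisons, are counted but given no weight, and its fold depends on the added 1. Adamts8 rose from 1, 1 and 1 to 4, 3 and 6 (1.38, limma adjusted p = 0.00874), values where rounding error is large. That call was kept in 16 of 18 alternatives. It was lost without the 3 libraries that hold Xist (adjusted p = 0.085) and with the extrapolated variance trend. Adamts7 fell, from 20, 25 and 27 to 14, 14 and 15 (a log2 difference of -0.70, limma adjusted p = 0.0192), a call kept in 14 of 19 alternatives and lost without saline wild-type library 2 or 3 or saline mutant library 2 (adjusted p = 0.0651, 0.0926 and 0.091; up to 0.0932 over all). Adamts5, which like Adamts1 cleaves versican, had means of 48.3 and 51.3 and a difference of 0.04 (limma adjusted p = 0.98).

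Of the 7 ADAMTS-like genes, whose products resemble ADAMTS enzymes without the protease domain, 2 rose and 1 fell. Adamtsl2 rose from 41, 44 and 40 to 107, 162 and 215 (1.87, limma adjusted p = 0.00147), and the treated libraries had 95, 100 and 129. Adamtsl5 rose from 75, 74 and 71 to 113, 136 and 122 (0.74, limma adjusted p = 0.00319). Adamtsl3 fell, from 14, 15 and 13 to 3, 4 and 8 (-1.41, limma adjusted p = 0.016). That call was kept in 14 of 18 alternatives and lost without saline wild-type library 1 or saline mutant library 2 (adjusted p = 0.0834 and 0.0734; up to 0.191 over all).

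Of the 9 tested genes listed for the plasminogen system, limma called 0, with 1 at an unadjusted p under 0.05. Among other matrix proteases and inhibitors, Htra1, a secreted serine protease, fell from 100, 99 and 90 to 58, 59 and 59 (-0.70, limma adjusted p = 0.00277), and the treated libraries had 86, 80 and 73. Serpinf1 rose from 46, 43 and 32 to 65, 69 and 97 (0.91, limma adjusted p = 0.0197), and Wfdc1 fell from 26, 22 and 20 to 13, 15 and 13 (-0.69, limma adjusted p = 0.0198). The Serpinf1 call was kept in 15 of 19 alternatives and lost without saline wild-type library 3 or saline mutant library 2 or 3 (adjusted p = 0.0601, 0.0545 and 0.051; up to 0.0816 over all). The Wfdc1 call was kept in 13 of 19 and lost without saline wild-type library 1 or 2 or saline mutant library 2 or 3 (adjusted p = 0.0797, 0.0541, 0.0562 and 0.0566; up to 0.12 over all). None of the procollagen-processing genes (0 of 4), ADAM sheddases (0 of 7) or cathepsins and cystatins (0 of 9) passed the limma test, with 1, 2 and 5 at an unadjusted p under 0.05.

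With treatment, 0 of 80 tested genes of these lists were called by limma and 7 had an unadjusted p under 0.05, where 8.29% of all genes had. Between treated and wild-type hearts 2 of 79 were called by limma, both higher: Adamtsl2 (1.34, adjusted p = 0.0169) and Adamts20, which again passed the filter only through the mutant libraries. An unadjusted p under 0.05 was reached by 22, where 12.5% of all genes had one. The Adamts20 call was kept in 6 of 18 alternatives. That of Adamtsl2 was kept in 15 of 19 and lost without saline wild-type library 1, 2 or 3 (adjusted p = 0.0613, 0.0639 and 0.0665, the last the highest over all).

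**Figure D4:**
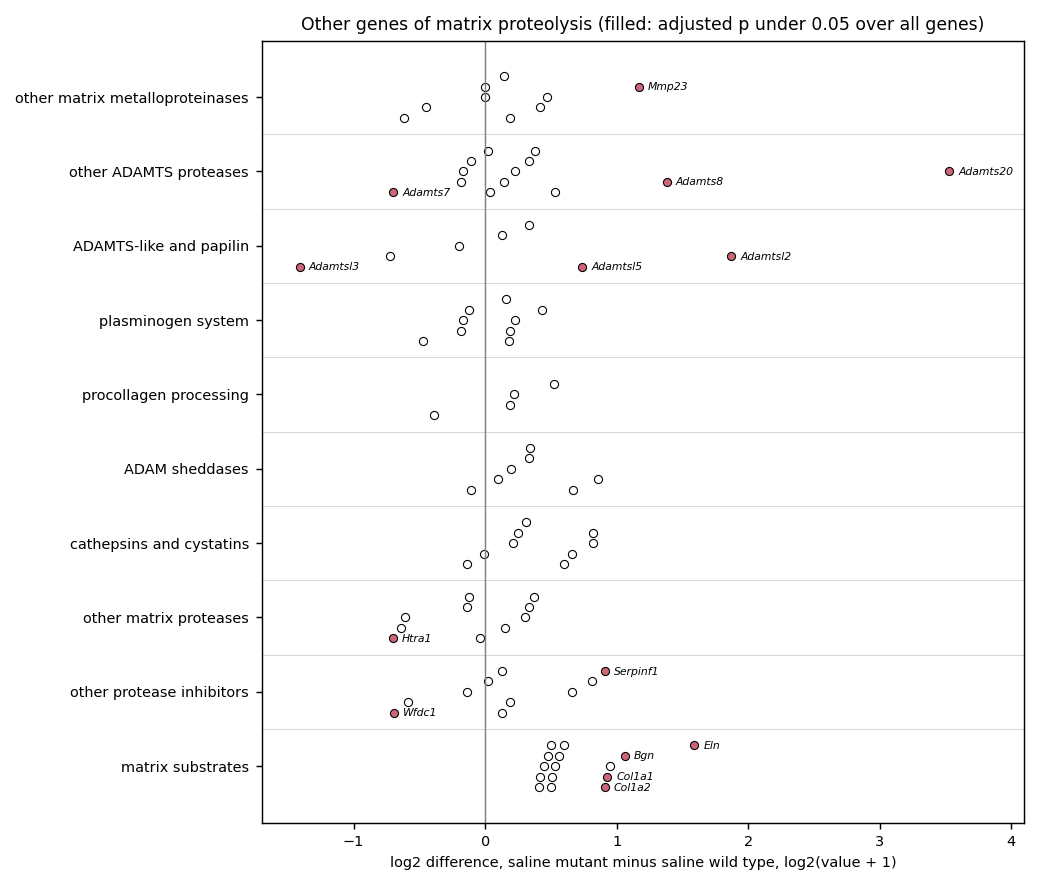
Log2 difference between saline mutant and saline wild-type hearts (horizontal axis, on log2(value + 1)) for each tested gene of the other lists, 1 point a gene, in rows by list with vertical offsets for legibility only. Filled and named points have an adjusted p under 0.05 over all genes tested. Calls lie on both sides of 0, from Adamtsl3 at -1.41 to Adamtsl2 at 1.87, with Adamts20 farther right at a place that depends on the added 1, and all 15 matrix substrates lie above 0.

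The matrix proteins that these enzymes cut, or whose precursors they process, were a list of 17 genes with 15 tested. Of these 4 rose between the saline groups, where 4.56% of all genes were called higher. All 15 of 15 were above 0, where 59.1% of all genes were, with a median of 0.53. An unadjusted p under 0.05 was reached by 12 of them and by 19.7% of all genes. The elastin gene Eln rose from 73, 93 and 66 to 166, 244 and 308 (1.59, limma adjusted p = 0.00317). The biglycan gene Bgn rose from 390, 429 and 303 to 582, 736 and 1081 (1.06, limma adjusted p = 0.0217). The collagen I genes Col1a1, from 196, 247 and 148 to 320, 360 and 435, and Col1a2, from 261, 356 and 241 to 426, 508 and 688, rose by 0.93 and 0.91 (limma adjusted p = 0.0194 and 0.0271). The Eln call was kept in 19 of 19 alternatives, those of Bgn and Col1a1 in 14 of 19 and that of Col1a2 in 13 of 19. Bgn, Col1a1 and Col1a2 all lost it without saline wild-type library 1 (adjusted p = 0.0847, 0.0816 and 0.123) and without saline mutant library 2 (0.07, 0.0694 and 0.0838). Bgn and Col1a2 were also lost without saline wild-type library 3 (0.0726 and 0.0927), and Col1a1 and Col1a2 without saline mutant library 3 (0.0717 and 0.071). The highest adjusted p over all alternatives was 0.098 for Bgn, 0.122 for Col1a1 and 0.137 for Col1a2. Col1a1, Dcn and Lum are also among the 10 fibroblast markers, of which Col1a1 was the only one called. Vcan, the versican gene and a substrate of Adamts1, had means of 32.7 and 64.3 and a difference of 0.95 that did not pass (limma adjusted p = 0.0959). With treatment, 0 of 15 substrates were above 0, the median was -0.46, and limma called 0, with 7 at an unadjusted p under 0.05. Over all genes 40.6% were above 0 and 8.29% had an unadjusted p under 0.05. Both comparisons use the saline mutant libraries.

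The genes whose pattern over the 9 libraries was most like that of each called member were ranked by the mean absolute difference of centred log2 values, among 8786 genes with a mean of at least 10 for Timp1 and 8785 for Adamts1. For Timp1 they were Nmrk2 (0.192), Tubb2a (0.224) and Hsp90aa1 (0.266). Hsp90aa1 was listed at 98, 109 and 90 in saline wild type, 237, 234 and 272 in saline mutant and 390, 193 and 183 in treated hearts, so treated library 1 was highest for it as for Timp1. Nmrk2 was listed at 26, 5 and 11 in treated hearts, with library 1 again highest and library 2 lowest. For Adamts1 they were 1110002E22Rik (0.151), Rnf115 (0.152) and Slc16a6 (0.156). Slc16a6, which encodes a monocarboxylate-type transporter, was listed at 6, 9 and 7, then 16, 16 and 17, then 10, 14 and 12 in saline wild type, saline mutant and treated hearts, also without overlap between groups. These likenesses follow from the ranking, which chose the genes on these same 9 libraries, and carry no further weight.

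**Figure D5:**
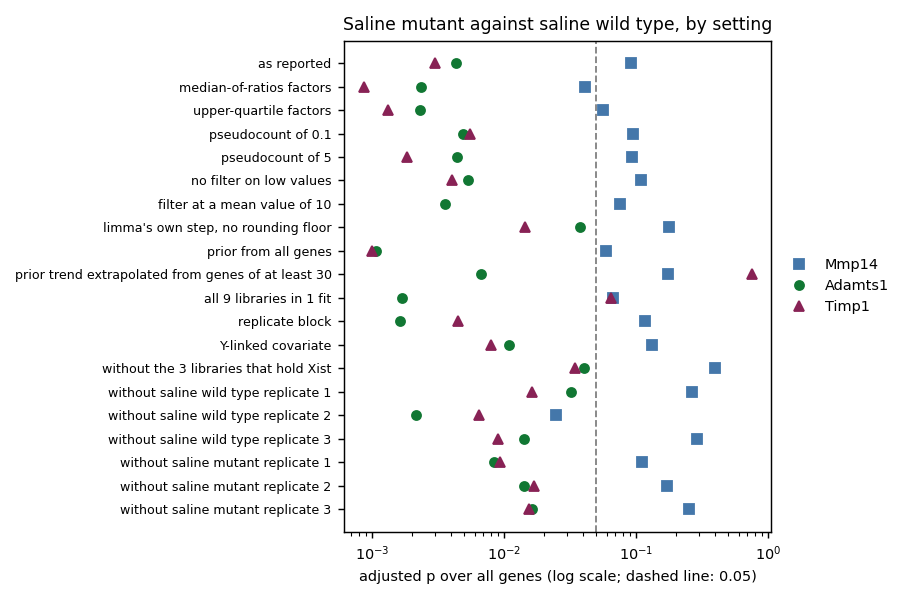
Adjusted p over all genes (horizontal axis, log scale, dashed line at 0.05) of Timp1, Adamts1 and Mmp14 between the saline groups, as reported and in each of the 19 alternatives named at left. Adamts1 stays left of the line throughout, Timp1 lies right of it in 2 settings and has no point where the filter removes it, and Mmp14 lies left of it in 2.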

How the data were processed

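The deposited per-library values are whole numbers treated as a score, since no label or header names their unit; the authors appear to have rounded per-million values. The submitters' processing notes list HISAT2, HTSeq and DESeq2 and the build mm10, with no versions or roles. The authors' deposited tables also hold a mean signal per gene, a log2 fold change with its standard error, a test statistic and p-values. Their column named as the adjusted p-value equals the unadjusted p-value of the statistic, and is printed here as p. Depth is unknown, so no counting interval is given. The 3 tables agreed in every value they share.

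Each pair of groups was fitted with limma 3.58.1 (R 4.3.3) on log2(value + 1), for genes with a mean of at least 1 over the 6 libraries. Residual variances were floored at the variance that rounding adds, and prior degrees of freedom came from genes with a mean of at least 30. The design had taken the prior trend from those genes too. Extrapolated, it set the prior variance of genes with a mean under 10 at a median of 51.2, 47.9 and 6.57 times their residual variance in the 3 comparisons, and low genes were not recovered on simulated data. The simulation drew its noise from the observed spread of each gene, so it cannot decide which trend is right. The trend was taken from all genes, a change made after seeing the data. The extrapolated version, the 1 first planned, is kept as an alternative. Under it 1 member, Adamts1, was called between the saline groups, and Timp1 was not (limma adjusted p = 0.757). P-values were adjusted by Benjamini-Hochberg over all genes tested. Members, lists, alternatives and the rule for named genes (the called genes of each list, and the 3 genes most like each called member) were chosen with earlier results of these data known. Not every gene of these systems is reported here. Positions are from GENCODE M21 and promoters from RefSeq; figures used matplotlib 3.10.9 in Python 3.11.15.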

Additional observations from a re-analysis of the deposited data

How the results depend on the processing

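Between the saline groups 2 members were called as reported, and 1 under each of 3 alternatives. These were a filter at a mean of 10, which leaves Timp1 untested, the extrapolated variance trend first planned, and 1 fit of all 9 libraries. Leaving out 1 library gave 2 to 3, and 0 in each of the other 2 comparisons. With a replicate block the counts were 2, 0 and 0. The labels share replicate numbers, but deviations of same-numbered libraries correlated at -0.229, -0.104 and -0.37 in the first comparison, -0.0696, 0.197 and 0.12 in the second and 0.566, 0.15 and 0.0274 in the third, so the numbers were not taken as pairs. Signs turned in 10 single-gene results, none called. With 1 library left out, Timp2 between the saline groups ranged from -0.18 to 0.014, Timp4 from -0.27 to 0.22 and Plat from -0.20 to 0.11; with treatment, Timp1 ranged from -0.85 to 0.26 and Timp3 from -0.24 to 0.19; against wild type, Mmp2 ranged from -0.007 to 0.24. Timp3 with treatment was 0.30 without the 3 libraries that hold Xist. The cause was not tested. The number of genes called over the whole table ranged from 506 to 1311 between the saline groups (1050 as reported), 2 to 32 with treatment (2) and 1 to 248 against wild type (134). With the extrapolated trend it was 526, 2 and 59. With the block it was 819, 30 and 35. Depth is unknown, and Timp1 values of 1 and 2 carry the largest rounding error among the members.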
